A study of Mus musculus with 6 samples.

Results

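RNA was sequenced from RM1 mouse prostate cancer cells before and after passage through a mouse, and the values below set the recovered cells against the unlabelled line they descend from. The recovered group held 2 libraries of RM1536 cells, 1 from the femur (bone) and 1 from the lung of the same mouse, taken 16 days after cells stained with the dye PKH26 were injected into the heart. RM1536 is RM1 carrying eCFP, a cyan fluorescent protein, and the luciferase luc2. It was built by pooling clones 5, 3 and 6, and 2 libraries of it (replicates a and b) came from culture. The baseline was unlabelled RM1 in culture, again replicates a and b. These 4 libraries, bone and lung against RM1 a and b, make up the comparison out of 6 in all, and the 2 RM1536 libraries served to sort the differences into those that persisted, those that returned to the RM1 level and those first called after passage. All cells were of C57BL/6 origin, and the recovered cells were PKH-negative, since the dye is diluted as cells divide.

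Per the labels, cells were sorted by FACS and grown on in medium with 5% serum, to 85% confluency, before RNA was taken, also after recovery from the mouse. Passage through the mouse, the sort and the renewed growth cannot be told apart, and neither can labelling, cloning and pooling in the RM1536 difference. With 1 mouse, no value covers the spread between animals. The labels do not say whether replicates a and b were separate cultures, so that p-values measure only the spread between these libraries, which may be technical in part.

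RM1 cells were made from mouse urogenital sinus cells carrying the ras and myc oncogenes, and they form tumours in immunocompetent C57BL/6 mice. Cells respond to type I interferon through receptor-bound JAK kinases, which activate factors of the STAT family. Together with IRF9 these enter the nucleus, bind interferon response elements in promoters and switch on antiviral genes and much of the MHC class I machinery that shows peptides to T cells.

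Depth ran from 22763835 to 30303566 counts per library, where a limit of 3 counts equals 0.099 to 0.132 CPM (counts scaled to library size, after TMM). Of the genes at 5 CPM or more in at least one of a pair, bone and lung differed by 2-fold or more in 1067 of 10005 (10.7%), RM1536 a and b in 584 of 9911 (5.89%) and RM1 a and b in 532 of 9972 (5.33%). The prostate luminal gene Hoxb13 had no reads in any library. Krt18, a simple-epithelium keratin gene, lay between 272 and 454 CPM in all 6 libraries, while the epithelial genes Epcam and Cdh1 stayed at or under 1.32 CPM.

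Most of the distance between RM1536 and RM1 was still there after passage. In recovered cells against RM1, 806 of 13182 genes were called by the edgeR quasi-likelihood test at an adjusted p under 0.05 (6.11%), with 333 higher (2.53%) and 473 lower (3.59%). In RM1536 against RM1, 416 were called (3.16%), with 140 higher (1.06%) and 276 lower (2.09%). Both comparisons use the same RM1 libraries, so their values lean the same way by construction and are given side by side without a test of their likeness. Of the 416 differences of the labelled line, 327 (78.6%) were also called in the same direction in recovered cells and are termed persisted. That held for 118 of the 140 genes higher in RM1536 (84.3%) and for 209 of the 276 lower ones (75.7%). Another 18 (4.33%) were not called after passage and kept under 25% of their log2 difference, and these are termed returned. A further 67 lay in between and 0 were called in the opposite direction. Another 4 kept over 75% without a call, among them Pex6, Hk1 and Fam212a, each at an adjusted p of 0.0506 and named after their values were seen. The persisted share depended on the setting. It was 67.1% in edgeR without a low-count filter, 65.9% with DESeq2 and 35.1% with only the 2 compared groups. The median share of the log2 difference kept was 96.9% here and 91.1%, 89.8% and 95.3% in those settings, over the genes each called in RM1536.

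**Figure D1:**
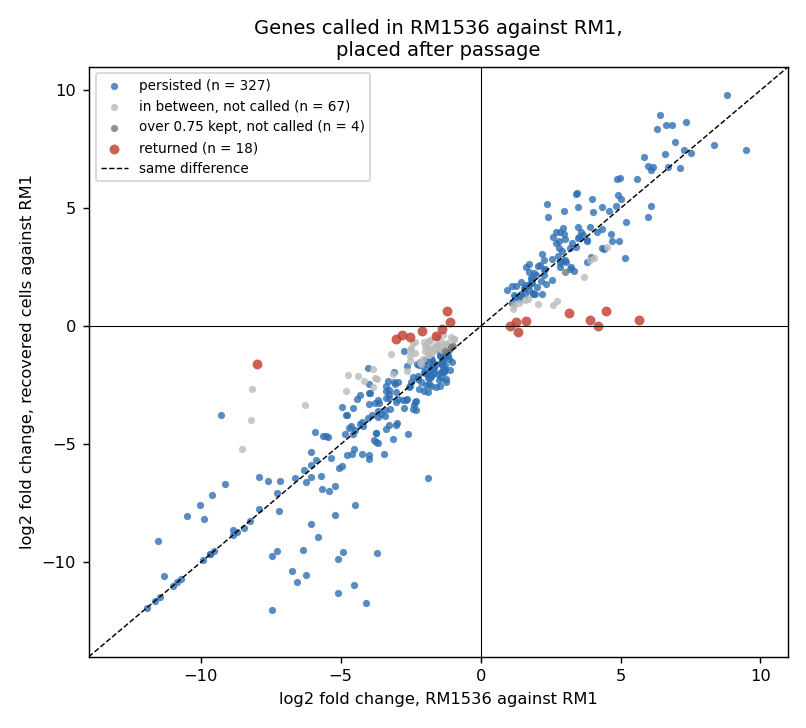
Log2 fold change against RM1 for the 416 genes called in RM1536 against RM1, with RM1536 on the horizontal axis and recovered cells (bone and lung together) on the vertical axis. The 327 persisted genes share the direction of RM1536 and spread around the dashed line of equal difference, some far from it (Ripk3 at -4.11 and -11.72), and the 18 returned genes lie near the horizontal line at 0, apart from Clec4d at a vertical value of -1.59.

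Each site was also placed alone. The median share of the RM1536 difference kept was 99.1% in bone and 97.7% in lung. Bone kept over 75% of the difference in 302 genes and under 25% in 18, and lung did so in 308 and 21. Under 25% is termed back, and it includes genes that passed the RM1 level, such as Trib1. In 272 genes both sites kept it, in 13 both were back, and 0 genes were kept in one site and back in the other.

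Against RM1536 itself, the recovered cells had 0 of 13182 genes called by edgeR (0% in either direction, 0% higher and 0% lower), with 1417 at an unadjusted p under 0.05. DESeq2 called 344, edgeR without a low-count filter 865 and limma-voom 0. In the edgeR test used here no gene is therefore called as returned, or as new after passage, against RM1536, and both terms rest on the calls against RM1. With DESeq2, 73 returned genes and 132 first called after passage also passed a test against RM1536, and 174 and 273 did so in edgeR without the filter. The calls against RM1 rest on both RM1 libraries: 5 genes were called without RM1 a and 11 without RM1 b, where the remaining RM1 library is assumed to vary like the other groups. In RM1536 against RM1, 2 and 5 were called in these settings, and 2 and 3 without either RM1536 library (a, then b). Among 80 named and called genes, Ripk3, Cdkn2b, Crabp1 and Crabp2 kept their calls under all 13 alternatives, and 76 missed the threshold without RM1 a.

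The largest falls were in genes read at or close to 0 in recovered cells. In bulk RNA, fewer cells with a transcript and less of it per cell cannot be told apart. Ripk3, a kinase gene of necroptosis (chromosome 14, 55784995 to 55788865, GRCm38), had 0 and 0.0398 CPM in bone and lung, 4.71 and 5.23 in RM1536, and 71.3 and 100.7 in RM1. That is 1 read against 4942, a ratio of 0.000244 (exact 95% counting interval 6.17e-06 to 0.00136; adjusted p = 0.00244). RM1536 stood between RM1 and the recovered cells, with a log2 fold change against RM1 of -4.11 ± 0.33 (approximate SE, n = 2 each). Dapk1, a death-associated protein kinase gene on chromosome 13, had 0.0437 and 0.119 CPM in bone and lung, 12.2 and 57.0 in RM1536, and 139.7 and 87.1 in RM1. Its log2 fold change was -10.34 ± 1.13 (adjusted p = 0.0132) and was not called in RM1536 (-1.71 ± 0.68, adjusted p = 0.221). Fbn2, the fibrillin 2 gene, had no reads in bone or lung against 464 and 1392 in RM1, at least 514-fold lower. RM1536 had 82 and 207 reads of it.

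Of 17 developmental transcription factor genes tested, 4 fell and 0 rose (median log2 fold change -0.57; background 3.59% lower). Pax5, the B cell factor gene, had no reads in any of the 4 RM1536-derived libraries and 8.80 and 27.0 CPM in RM1, at least 281-fold lower in recovered cells and at least 330-fold in RM1536. Sall1, a zinc finger factor gene of kidney and limb development, had no reads in bone, lung or RM1536 a, 0.192 CPM in RM1536 b, and 19.5 and 18.7 in RM1. The recovered cells were at least 306-fold lower in it. Gata2 (-1.36 ± 0.27, adjusted p = 0.0434) fell less and was first called after passage.

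At the Cdkn2 region of chromosome 4, the loss of RM1536 was also the state of both recovered sites. Cdkn2b, which codes for the cyclin-dependent kinase inhibitor p15, had 3 reads in recovered cells and 5872 in RM1, a ratio of 0.000615 (exact 95% counting interval 0.000127 to 0.0018; adjusted p = 0.00244). RM1536 had 2 reads. Cdkn2a, which codes for p16 and p19, inhibitors of the cell cycle and of the p53 regulator Mdm2, had no reads in bone, lung or RM1536 and 146 and 112 in RM1, at least 71.4-fold lower in recovered cells. The noncoding Gm12606 next to it stood at 6.51 and 4.86 CPM in bone and lung, 2.79 and 1.15 in RM1536, and 32.9 and 29.1 in RM1 (adjusted p = 0.0331). The counting strand is not given, so reads of overlapping genes cannot be assigned with certainty there. Mtap, the methylthioadenosine phosphorylase gene, rose instead (chromosome 4, 89137122 to 89181081, while Cdkn2a spans 89274471 to 89294653 and Cdkn2b 89306299 to 89311039), with 568 and 635 CPM in bone and lung, 572 and 564 in RM1536, and 135.5 and 189 in RM1. Klhl9, Focad and Dmrta1 were not called (adjusted p = 0.916, 0.517 and 0.0719).

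Among 18 imprinted genes tested, which are read from 1 parental allele, 4 fell and 1 rose (median -0.01; background 3.59% lower and 2.53% higher). Peg3 had 0 and 0.159 CPM in bone and lung, 0.0798 and 0.0962 in RM1536, and 26.9 and 38.5 in RM1. Peg12 had no reads outside RM1, where it had 326 and 121. Dlk1, Snrpn and the riser given below were first called after passage. Dlk1 and Snrpn each missed the threshold in 7 of 12 alternatives, among them the 2 compared groups alone. Dlk1, a Notch-related membrane protein gene, had no reads in bone or lung, 53 and 110 in RM1536, and 23 and 119 in RM1, at least 39.3-fold lower than RM1. The riser was the noncoding Mirg (log2 fold change 3.10, adjusted p = 0.0434), at 0.699 and 0.558 CPM in bone and lung, 0.638 and 0.513 in RM1536, and 0.0669 and 0.0717 in RM1.

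**Figure D2:**
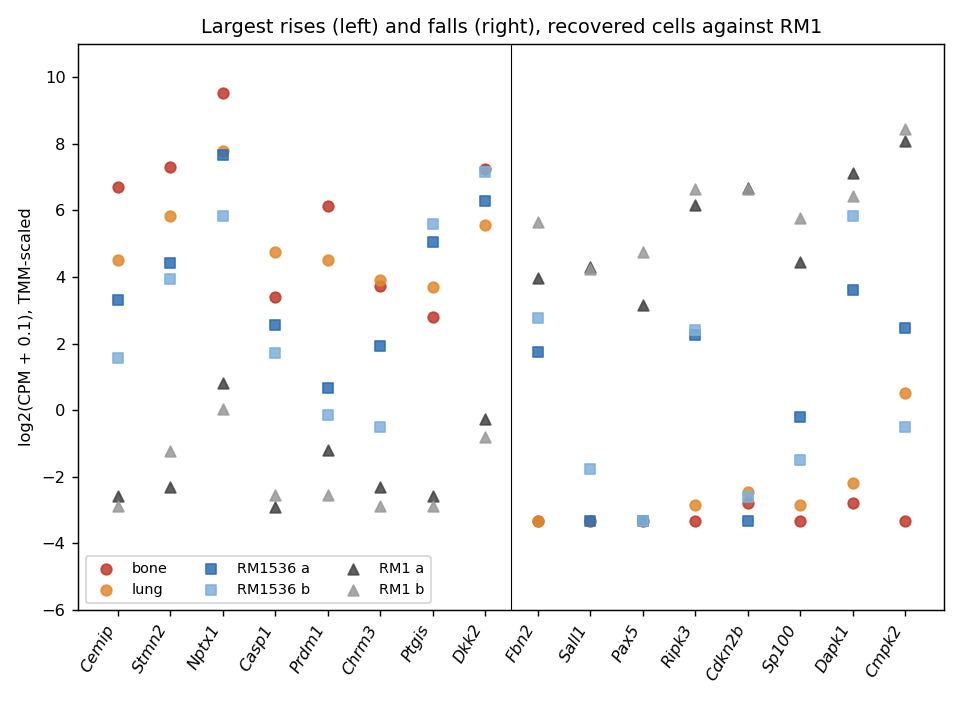
CPM on a log2 scale, with 0.1 added, in all 6 libraries for the 8 named genes with the largest rise (left of the line) and the 8 with the largest fall (right of the line) in recovered cells against RM1. Bone and lung lie on one side of both RM1 libraries in all 16, as the choice of these genes required. The RM1536 libraries lie near the recovered cells in Pax5 and Cdkn2b and nearer to RM1 in Dapk1.

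Interferon-stimulated genes held the most lower members, by count, of the gene lists examined. Of 49 tested, 25 fell and 1 rose in recovered cells against RM1 (background 3.59% lower), and 7 fell and 1 rose in RM1536 against RM1 (background 2.09% lower). The list's median log2 fold change was -4.04 in recovered cells and -2.93 in RM1536. Its median level was 5.59 and 9.84 CPM in bone and lung, 24.1 and 4.14 in RM1536 a and b, and 104 and 139 in RM1. By this median the recovered cells lay between the RM1536 libraries. By gene, 45 of 49 members had a negative fold change against RM1536 (median -1.13), and 0 were called. Of the 26 called members, 8 persisted and 18 were first called after passage. The number lower was 7 without bone, 21 without lung, and 0 without RM1 a or without RM1 b.

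Sp100, a nuclear body protein gene, had 1 read in recovered cells and 2167 in RM1, a ratio of 0.000556 (exact 95% counting interval 1.41e-05 to 0.0031; adjusted p = 0.0119), and 19 and 8 reads in RM1536. Cmpk2, a mitochondrial nucleotide kinase gene, had 0 and 1.31 CPM in bone and lung, 5.46 and 0.609 in RM1536, and 270.0 and 351 in RM1. The log2 fold change was -8.84 ± 1.52 (adjusted p = 0.0302). Its neighbour Rsad2, which codes for the antiviral enzyme viperin, had 0 and 2.11 CPM in bone and lung, 4.55 and 0.257 in RM1536, and 266 and 495 in RM1. It fell by 8.46 ± 1.75 (adjusted p = 0.0460), and missed the threshold in 7 of 13 alternatives, with adjusted p up to 0.133. Oas1a, a double-stranded RNA sensor gene, had 0.0437 and 1.11 CPM in bone and lung, 6.06 and 0.898 in RM1536, and 69.0 and 97.8 in RM1. It fell by 7.13 ± 1.31 (adjusted p = 0.0351), and missed the threshold without bone. Oas1a has close copies among its neighbours, so the split of reads between them is uncertain.

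Irf7, a factor gene that amplifies the interferon signal, had 1.49 and 7.41 CPM in bone and lung, 26.0 and 3.24 in RM1536, and 211 and 376 in RM1 (-6.04 ± 1.25, adjusted p = 0.0459). Among 18 interferon receptors, sensors and upstream factors tested, 3 fell and 0 rose (median -0.38, background 3.59% lower). These were the double-stranded RNA sensor gene Tlr3 (-4.72 ± 0.80, adjusted p = 0.0287), Irf5 (-4.65 ± 0.90, adjusted p = 0.0401) and Irf3 (-1.08 ± 0.18, adjusted p = 0.0291). The receptor gene Ifnar1 stood at 78.9 and 73.3 CPM in bone and lung, 68.8 and 58.9 in RM1536, and 102.5 and 80.8 in RM1, and was not called (adjusted p = 0.484).

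The exception was Ifitm1, a gene for a membrane protein that restricts virus entry, named here after its values were seen. It had 802 and 319 CPM in bone and lung, 509 and 404 in RM1536, and 20.2 and 18.1 in RM1. Its log2 fold change was 4.87 ± 0.49 in recovered cells (adjusted p = 0.0119) and 4.57 ± 0.49 in RM1536 (adjusted p = 0.0176). Both sites lay far above both RM1 libraries, and the sites bracketed RM1536.

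**Figure D3:**
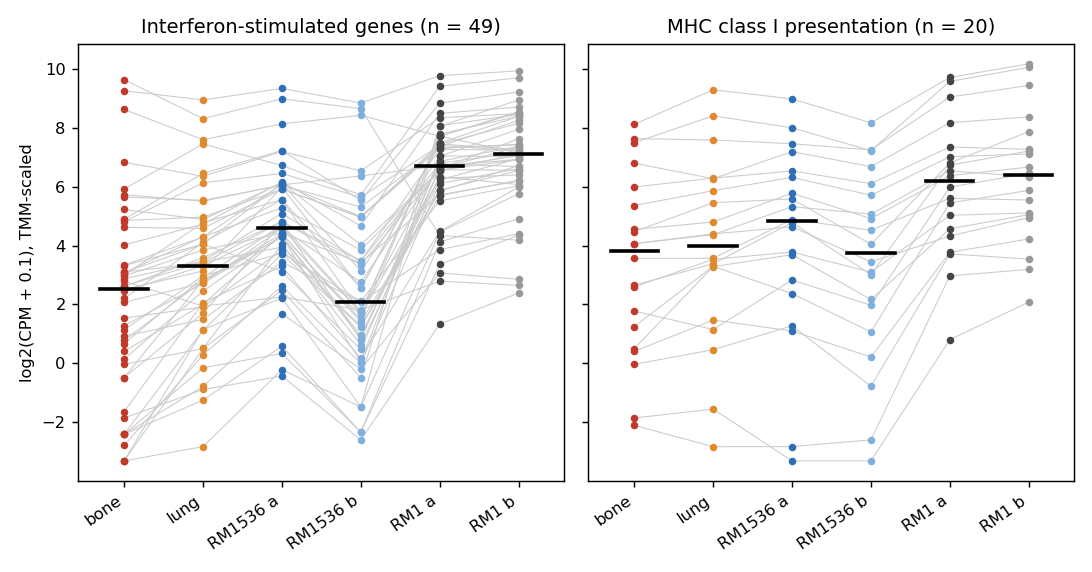
CPM on a log2 scale, with 0.1 added, for the 49 interferon-stimulated genes (left) and the 20 MHC class I presentation genes (right), with 1 point per gene, thin lines joining a gene across the libraries, and a black bar at the median. For the interferon genes the median CPM was 5.59 and 9.84 in bone and lung, 24.1 and 4.14 in RM1536, and 104 and 139 in RM1.

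The promoters of 4 of these genes are shown: Oas1a and Rsad2 as genes that fell and hold a match to the motif, Cmpk2 as a gene that fell and holds none, and Ifitm1 as the gene that rose. Sp100, which also fell, holds none at either of its RefSeq start sites. The core of the interferon-stimulated response element was searched as GAAANNGAAA and its reverse complement TTTCNNTTTC, on both strands, overlapping matches counted. Windows are the 250 bases before the start site in RefSeq on GRCm38.p6, written 5′ to 3′ along the gene, and capitals mark matches. Oas1a lies at chr5:120907526-120907775 on the minus strand and holds 2 overlapping matches. Rsad2 lies at chr12:26456453-26456702 on the minus strand and holds 1. Cmpk2 lies at chr12:26468965-26469214 on the plus strand and holds none. Ifitm1 lies at chr7:140967826-140968075 on the plus strand and holds none.
Oas1a: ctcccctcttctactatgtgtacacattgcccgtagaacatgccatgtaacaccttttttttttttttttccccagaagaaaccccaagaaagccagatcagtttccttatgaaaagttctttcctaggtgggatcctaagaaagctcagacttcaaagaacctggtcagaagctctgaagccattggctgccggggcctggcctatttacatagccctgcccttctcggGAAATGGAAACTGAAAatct
Rsad2: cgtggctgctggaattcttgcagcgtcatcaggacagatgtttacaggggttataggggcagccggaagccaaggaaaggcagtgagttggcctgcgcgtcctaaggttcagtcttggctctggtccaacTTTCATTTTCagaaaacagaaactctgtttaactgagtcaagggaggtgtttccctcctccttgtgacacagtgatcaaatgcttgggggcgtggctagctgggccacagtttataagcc
Cmpk2: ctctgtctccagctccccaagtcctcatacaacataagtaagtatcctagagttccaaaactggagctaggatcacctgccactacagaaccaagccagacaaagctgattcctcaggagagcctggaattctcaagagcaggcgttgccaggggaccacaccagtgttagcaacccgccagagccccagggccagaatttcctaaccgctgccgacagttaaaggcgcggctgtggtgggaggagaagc
Ifitm1: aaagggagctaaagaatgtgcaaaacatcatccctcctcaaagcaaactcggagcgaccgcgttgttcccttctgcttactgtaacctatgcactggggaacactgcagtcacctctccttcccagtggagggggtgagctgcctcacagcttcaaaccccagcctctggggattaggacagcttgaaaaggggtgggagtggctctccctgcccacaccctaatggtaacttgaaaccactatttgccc

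Over windows reaching 50 bases past the start site, 17 of the 37 interferon-stimulated genes with a RefSeq promoter held a match (45.9%). The share was 9.66% of genes lower in recovered cells (34 of 352), 3.03% of genes higher (7 of 231), 3.69% of all tested genes (357 of 9676) and 3.99% of all genes with a promoter (1079 of 27025). Of the 20 called-lower interferon-stimulated genes with a promoter, 8 held one (40%) and 12 held none. The matches describe letters in these windows and do not show binding.

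Genes of MHC class I presentation fell in 14 of 20 tested members and rose in 0 (median -2.12, background 3.59% lower). In RM1536 6 fell and 0 rose (median -1.81). The class I heavy chain gene H2-K1 had 199 and 193 CPM in bone and lung, 177 and 153 in RM1536, and 531 and 697 in RM1 (log2 fold change -1.65 ± 0.21, adjusted p = 0.0159). H2-Q4 had 3.32 and 2.11 CPM in bone and lung, 7.02 and 3.82 in RM1536, and 63.3 and 87.7 in RM1 (-4.80 ± 0.44, adjusted p = 0.00984). H2-Q7 (-6.57 ± 0.60, adjusted p = 0.00984) and H2-Q6 (-3.76 ± 0.72, adjusted p = 0.0479) also persisted, though H2-Q genes are near copies of each other and reads may be split between them. Tap1, a subunit gene of the peptide transporter, had 6.201 and 10.3 CPM in bone and lung, 27.4 and 7.95 in RM1536, and 106 and 148 in RM1 (-3.95 ± 0.64, adjusted p = 0.0257). Psmb10, an immunoproteasome subunit gene, had 11.7 CPM in both bone and lung, 29.5 and 22.9 in RM1536, and 48.6 and 46.8 in RM1 (-2.02 ± 0.22, adjusted p = 0.0131), and was under 2-fold in RM1536. B2m, the light chain gene, was not called (-1.14 ± 0.46, adjusted p = 0.203), with 279 and 630 CPM in bone and lung and 842 and 1161 in RM1. The number lower was 6 without bone, 9 without RM1536 a or b, and 0 without RM1 a or b.

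Of 9 immune checkpoint ligand genes tested, 1 fell and 0 rose (median -0.39, background 3.59% lower). Lgals9, which codes for galectin 9, had 3.01 and 13.1 CPM in bone and lung, 33.1 and 16.4 in RM1536, and 203 and 289 in RM1 (-4.93 ± 0.77, adjusted p = 0.0242). Cd274, the PD-L1 gene, had 5.33 and 5.38 CPM in bone and lung, 4.63 and 1.92 in RM1536, and 15.96 and 24.2 in RM1. It was called lower in RM1536 (adjusted p = 0.0482) but not after passage (-1.91 ± 0.47, adjusted p = 0.067). The surface antigen genes Ly6c1 and Ly6a fell in recovered cells, with log2 fold changes of -4.54 ± 0.35 and -3.06 ± 0.42 (adjusted p = 0.00858 and 0.0184). Both had persisted from RM1536, and Ly6 genes too have near copies.

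Neuronal genes rose in part. Of 14 tested, 5 rose and 0 fell (median 2.48, background 2.53% higher), and 3 rose in RM1536 (median 2.22, background 1.06% higher). The list was chosen with earlier results of these data known, so these counts may be set in part by that choice. Stmn2, a microtubule regulator gene of growing axons (chromosome 3, 8509360 to 8561606), had 157 and 57.1 CPM in bone and lung, 21.3 and 15.2 in RM1536, and 0.1003 and 0.323 in RM1. Its log2 fold change was 8.97 ± 0.79 (adjusted p = 0.00984). Nptx1, a secreted synaptic pentraxin gene, had 733 and 222 CPM in bone and lung, 201 and 56.7 in RM1536, and 1.67 and 0.932 in RM1 (8.51 ± 1.04, adjusted p = 0.015). Kcnab1, a potassium channel subunit gene, had 23.6 and 10.99 CPM in bone and lung, 12.4 and 8.66 in RM1536, and 0.0669 and 0.143 in RM1 (7.31 ± 0.65, adjusted p = 0.00984). All 3 were higher in bone than in lung, a difference that was not tested. Uchl1 (2.48 ± 0.45, adjusted p = 0.0335) and Syt1 (62 reads against 3, ratio 24.9, exact 95% counting interval 8.13 to 124) were first called after passage. Of the 5, 3 were called without RM1536 a or b, and 0 without RM1 a or b.

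The cellular retinoic acid binding protein genes kept their rise with little spread. Crabp1 (chromosome 9, 54764748 to 54773110) had 1203 and 1204 CPM in bone and lung, 1104 and 1210 in RM1536, and 7.63 and 14.8 in RM1 (6.75 ± 0.40, adjusted p = 0.0056). Crabp2 had 41.9 and 38.6 CPM in bone and lung, 24.5 and 22.4 in RM1536, and 0.301 and 0.430 in RM1 (6.77 ± 0.30, adjusted p = 0.00244). Rarb, a retinoic acid receptor gene, fell to 1 read in recovered cells, against 41 in RM1 (adjusted p = 0.0397). It missed the threshold in 8 of 12 alternatives, among them DESeq2 and the 2 compared groups alone. Crabp1, Crabp2 and Rarb were the called members among 10 retinoic acid genes tested (background 2.53% higher and 3.59% lower). Of 9 prostaglandin genes, 2 rose and 0 fell (background 2.53% higher). Ptgis, the prostacyclin synthase gene, had 6.86 and 12.9 CPM in bone and lung, 33.2 and 47.8 in RM1536, and 3 reads in RM1, a ratio of 193 for recovered cells (exact 95% counting interval 65.8 to 941). The receptor gene Ptgfr had 36.3 and 5.10 CPM in bone and lung, 2.87 and 4.97 in RM1536, and 0.435 and 0.788 in RM1 (5.07 ± 1.03, adjusted p = 0.0438).

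Of 16 bone metastasis genes tested, 3 rose and 2 fell (median 0.66; background 2.53% higher and 3.59% lower). Without any 1 of the 6 libraries, 0 fell. Dkk2, a secreted regulator of Wnt signalling, had 153 and 47.0 CPM in bone and lung, 77.9 and 143 in RM1536, and 0.736 and 0.466 in RM1 (7.36 ± 0.79, adjusted p = 0.0131). Cxcr4, the receptor gene for the chemokine of bone marrow stroma, had 167 and 64.1 CPM in bone and lung, 64.4 and 15.9 in RM1536, and 2.74 and 2.83 in RM1 (5.37 ± 0.84, adjusted p = 0.0242). The integrin gene Itgb3 rose by 1.61 ± 0.27 (adjusted p = 0.029) and persisted. Il11, an osteoclast-promoting cytokine gene, fell by 3.35 ± 0.70 (adjusted p = 0.0469). Gas6, a ligand gene of the TAM receptors, had no reads in recovered cells, 1 in RM1536 and 53 in RM1. The recovered cells were at least 14.7-fold lower in it than RM1. All 3 risers were above RM1 in the lung library too, and in both RM1536 libraries, where Dkk2 and Itgb3 were called and Cxcr4 stood at a log2 fold change of 3.85 ± 0.79 (adjusted p = 0.0606).

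Of 29 collagens and matrix proteins, 3 rose and 2 fell (median 0.36; background 2.53% higher and 3.59% lower), and all 5 had persisted from RM1536. Lox, the collagen crosslinking enzyme gene, had 97.0 and 98.9 CPM in bone and lung, 48.7 and 88.8 in RM1536, and 1.20 and 0.788 in RM1 (6.61 ± 0.43, adjusted p = 0.00689). Thbs2, a matricellular thrombospondin gene, had 2702 and 1789 CPM in bone and lung, 1248 and 1202 in RM1536, and 385 and 403 in RM1 (2.51 ± 0.25, adjusted p = 0.0119). Col6a1 rose by 2.50 ± 0.45 (adjusted p = 0.0334). Lama5, a laminin chain gene, had 47.7 and 35.6 CPM in bone and lung, 31.6 and 43.6 in RM1536, and 1065 and 420 in RM1 (-4.16 ± 0.51, adjusted p = 0.015). Col5a2 had 2 reads in recovered cells against 575 in RM1, a ratio of 0.00419 (exact 95% counting interval 0.000506 to 0.0152). Without bone 6 rose and 2 fell, and without lung 2 rose and 4 fell, with the list's median at -0.36.

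Of 19 matrix proteases and inhibitors, 3 rose and 2 fell (median 0.46; background 2.53% higher and 3.59% lower), and 0 fell without RM1536 a, RM1536 b, RM1 a or RM1 b. Ctsk, the cathepsin gene best known from osteoclasts, had 6.25 and 13.3 CPM in bone and lung, 2.27 and 0.609 in RM1536, and 0.0669 and 0.0717 in RM1 (7.05 ± 0.94, adjusted p = 0.0176). Of the other osteoblast and osteoclast markers, Acp5 lay at 0.175 and 0.438 CPM in bone and lung and Bglap at 0.218 and 0.159. Ctsk was the only marker of that list tested in the main edgeR setting. Without a low-count filter, 2 of the 7 markers were called higher in recovered cells against RM1 and 0 lower. Mmp2 rose by 2.27 ± 0.35 (adjusted p = 0.0236) and Adam12 had 67 reads in recovered cells against 3 in RM1. Adam8 fell by 3.33 ± 0.63 (adjusted p = 0.038). Of 8 epithelial genes, 2 fell and 0 rose (median -0.98, background 3.59% lower). These were the keratin gene Krt19 (-4.58 ± 0.53, adjusted p = 0.0133) and the desmosome gene Dsp, with no reads in recovered cells against 344 in RM1. Of 19 mesenchymal transition genes, only Tgfbi rose (3.99 ± 0.49, adjusted p = 0.015, background 2.53% higher) and 0 fell.

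**Figure D4:**
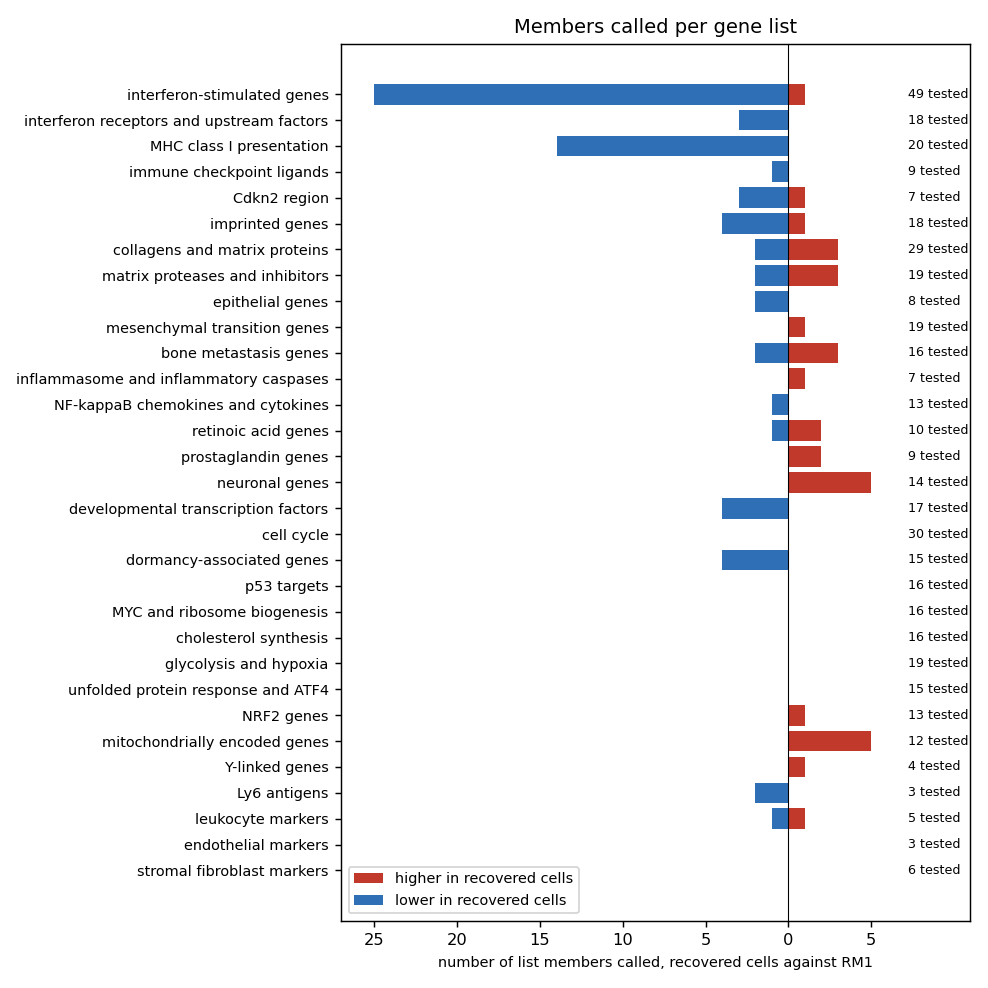
Number of members called in recovered cells against RM1 in each gene list, lower to the left and higher to the right of 0, with the number tested at the right edge. Interferon-stimulated genes (25 lower, 1 higher) and MHC class I presentation (14 lower, 0 higher) stand out from lists with 0 to 5 called members.

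Other large rises were not in the interferon, neuronal or matrix groups. Cemip, a hyaluronan-degrading protein gene, had 104 and 22.5 CPM in bone and lung, 9.77 and 2.85 in RM1536, and 3 reads in RM1. The ratio of recovered cells to RM1 was 1186 (exact 95% counting interval 405 to 5752; adjusted p = 0.017), and RM1536 just missed the threshold (adjusted p = 0.0514). Casp1, the inflammatory caspase gene, had 10.4 and 26.8 CPM in bone and lung, 5.78 and 3.17 in RM1536, and 3 reads in RM1 (ratio 366, exact 95% counting interval 125 to 1776). It was the called member of 7 inflammasome genes tested (background 2.53% higher). Prdm1, a transcriptional repressor gene, had 69.3 and 22.6 CPM in bone and lung, 1.48 and 0.801 in RM1536, and 0.335 and 0.0717 in RM1 (7.77 ± 0.91, adjusted p = 0.0139). RM1536 was not called in it (2.43 ± 0.87, adjusted p = 0.182). Chrm3, a muscarinic receptor gene, had 13.1 and 14.9 CPM in bone and lung, 3.67 and 0.609 in RM1536, and 4 reads in all in RM1 (7.57 ± 1.09, adjusted p = 0.0202).

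In all, 479 genes were first called after passage, 215 higher and 264 lower. Of these, 304 already lay 2-fold or more on the same side in RM1536 without a call, so the term covers many differences that RM1536 shared in part. Another 173 were under 2-fold in RM1536, and 2 were at 2-fold or more on the opposite side. Being under 2-fold does not set a gene apart from the labelled line: Irf3, with a log2 fold change of -1.08 in recovered cells, had -0.93 in RM1536. Bone and lung lay within 2-fold of each other in 167 of these 173 (96.5%), against 289 of the 327 persisted genes (88.4%). The calls need a small spread between the sites, so these shares are set in part by the choice of genes, and 0 of the 479 were called against RM1536.

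Among genes under 2-fold in RM1536, Scara5, a ferritin receptor gene, had the largest rise. It had 79.3 and 56.6 CPM in bone and lung, 4.99 and 2.34 in RM1536, and 1.61 and 3.94 in RM1 (4.61 ± 0.59, adjusted p = 0.0158). Crip1, a LIM protein gene, had 13.5 and 18.7 CPM in bone and lung, 2.39 and 3.46 in RM1536, and 2.17 and 1.40 in RM1 (3.17 ± 0.41, adjusted p = 0.0159). Hpse, the heparanase gene, had 14.7 and 23.1 CPM in bone and lung, 4.31 and 3.43 in RM1536, and 3.01 and 2.44 in RM1 (2.79 ± 0.36, adjusted p = 0.0158). Tgm2, a transglutaminase gene that crosslinks matrix, had 77.0 and 132 CPM in bone and lung, 41.8 and 23.3 in RM1536, and 19.8 and 24.98 in RM1 (2.23 ± 0.39, adjusted p = 0.0319). Mctp2 and Peli2 rose by 2.65 and 2.29. In all 6 genes both sites lay above both RM1536 libraries.

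On the lower side, Fam213a, a redox protein gene, had 0.306 and 1.87 CPM in bone and lung, 9.53 and 11.1 in RM1536, and 18.7 and 20.6 in RM1 (-4.16 ± 0.73, adjusted p = 0.0321). F2rl1, a protease-activated receptor gene, had 15.8 and 19.6 CPM in bone and lung, 39.9 and 83.4 in RM1536, and 107 and 92.4 in RM1 (-2.49 ± 0.38, adjusted p = 0.0222). Abcg2, a drug efflux transporter gene, had 2.53 and 2.55 CPM in bone and lung, 7.38 and 9.91 in RM1536, and 11.5 and 11.1 in RM1 (-2.15 ± 0.30, adjusted p = 0.0193). Nbn, a DNA break repair gene, had 4.63 and 5.46 CPM in bone and lung, 8.85 and 13.4 in RM1536, and 23.9 and 17.6 in RM1 (-2.04 ± 0.33, adjusted p = 0.0255). Cpne3 fell by 2.06 ± 0.27 (adjusted p = 0.0168). The recovered sites lay below both RM1536 libraries in each of these 5 genes.

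The 18 returned genes were few, 9 of them higher and 9 lower in RM1536. Penk, the enkephalin precursor gene, had 1.44 and 0.836 CPM in bone and lung, 19.9 and 13.3 in RM1536, and 1.14 and 0.323 in RM1. Its log2 fold change was 0.63 ± 0.64 in recovered cells (adjusted p = 0.614) and 4.50 ± 0.68 in RM1536 (adjusted p = 0.0287). Tmem173, which codes for the DNA-sensing adaptor STING, had 6601 and 6632 reads in bone and lung, 15397 and 16330 in RM1536, and 8887 and 7004 in RM1 (log2 fold change 0.01 ± 0.19 in recovered cells and 1.05 ± 0.20 in RM1536). Neto2, an auxiliary receptor subunit gene, had 67.1 and 53.2 CPM in bone and lung, 150.0 and 162 in RM1536, and 52.1 and 49.6 in RM1. Ska1, a kinetochore gene, had 12.7 and 10.8 CPM in bone and lung, 23.8 and 26.4 in RM1536, and 11.2 and 9.78 in RM1. In these 4 genes the recovered sites and RM1 lay apart from both RM1536 libraries.

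Of the genes lower in RM1536, Trib1, a pseudokinase gene, had 153.6 and 119 CPM in bone and lung, 39.4 and 35.5 in RM1536, and 89.1 and 83.5 in RM1, so that both sites passed the RM1 level. Its log2 fold change in recovered cells was 0.66 ± 0.20 (adjusted p = 0.109). DESeq2 called Trib1 higher than RM1 in recovered cells, so it did not count as returned there. Rnf144b, a ubiquitin ligase gene, had 47.8 and 46.8 CPM in bone and lung, 19.6 and 19.8 in RM1536, and 45.6 and 38.2 in RM1. Pvrl2, which codes for nectin 2, had 15.1 and 17.1 CPM in bone and lung, 8.17 and 5.77 in RM1536, and 18.0 and 24.4 in RM1. Paqr8, a membrane progestin receptor gene, had 45.3 and 62.5 CPM in bone and lung, 17.5 and 10.96 in RM1536, and 61.9 and 60.2 in RM1. Eps8l2, an actin regulator gene, had 68.2 and 47.9 CPM in bone and lung, 25.6 and 22.99 in RM1536, and 65.6 and 59.1 in RM1. Set against RM1536, recovered cells had adjusted p between 0.188 and 0.32 over the 18 genes in edgeR, and 0 passed the threshold. With DESeq2 15 of the 18 passed (adjusted p from 1.54e-11 to 0.158), and all 18 did in edgeR without a low-count filter, while 0 passed in the other 11 alternatives. Others, named after their values were seen, were Aspn, Celsr3, Ccdc8 and Gm43305, which were higher in RM1536, and Clec4d, Arl4d, Tigit and Bach2, which were lower.

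**Figure D5:**
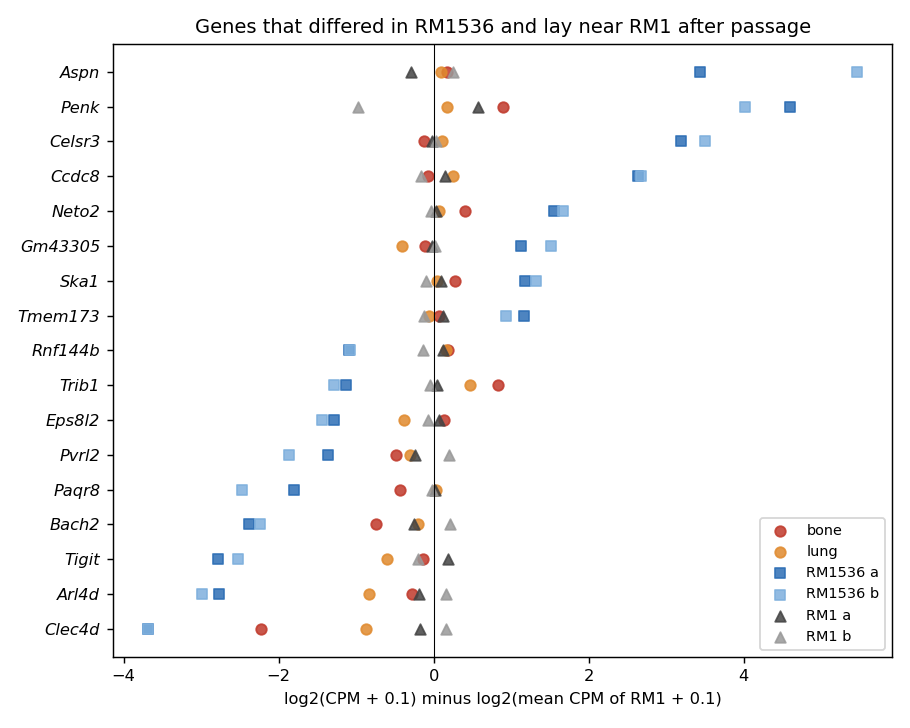
CPM of 17 of the 18 returned genes in each library, as log2(CPM + 0.1) minus the same value for the RM1 mean. Squares (RM1536) lie away from 0 on both sides. Circles (bone and lung) lie nearer to 0 than both squares do in all 17 genes, which the definition of returned largely fixes.

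Several growth and metabolism lists had 0 called members in either direction against RM1 in the main edgeR setting (background 6.11% called). These were cell cycle (30 tested), p53 targets (16), MYC and ribosome biogenesis (16), cholesterol synthesis (16), glycolysis and hypoxia (19) and the unfolded protein response (15). At that background, lists of these sizes hold few called genes. Without a low-count filter each list had called members, with 4 cell cycle and 5 cholesterol synthesis genes lower. DESeq2 called 3 and 2 genes of these 2 lists lower. Cell cycle genes had a median of -0.26 in recovered cells and 0.55 in RM1536, and the median in recovered cells changed sign without lung (0.03) and without RM1 a (0.19). Mki67, a proliferation marker gene, had 166 and 76.3 CPM in bone and lung, 138 and 338 in RM1536, and 234 and 113 in RM1, so the groups overlapped. Hk1, a hexokinase gene, was called lower in RM1536 (-1.05, adjusted p = 0.0466) and lay at -0.88 ± 0.19 in recovered cells (adjusted p = 0.0506). Of 13 NRF2 genes, Nqo1 rose (1.89 ± 0.30, adjusted p = 0.0246, background 2.53% higher). Of 13 NF-kappaB chemokines and cytokines, Lif fell (-2.31 ± 0.27, adjusted p = 0.0133, background 3.59% lower). Of 15 dormancy-associated genes, 4 fell (background 3.59% lower), among them Gas6, Rarb and Irf7, which are described above.

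Mitochondrially encoded genes, which code for respiratory chain subunits and the RNAs that translate them, rose in 5 of 12 tested members and fell in 0 (median 1.38, background 2.53% higher). They took 1.83% and 1.95% of counts in bone and lung, 1.3% and 1.2% in RM1536, and 0.932% and 0.567% in RM1. mt-Cytb had 4074 and 5081 CPM in bone and lung, 2324 and 2175 in RM1536, and 1395 and 887 in RM1 (2.01 ± 0.28, adjusted p = 0.019). mt-Nd4, mt-Nd2, mt-Nd1 and mt-Nd3 rose by 1.93, 1.75, 1.57 and 1.46. The RM1 libraries differed between themselves, and 1 member was called without bone, lung, RM1536 a or RM1536 b and 0 without RM1 a or RM1 b. Whether RNA quality had a part in this was not tested. Among 4 Y-linked genes tested, 1 rose and 0 fell (median 0.51, background 2.53% higher). It was Eif2s3y (1.02 ± 0.19, adjusted p = 0.0397), which missed the threshold in 7 of 13 alternatives, among them the 2 compared groups alone.

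Markers of mouse cells that a sort could carry over were low. Lyz2, the lysozyme gene of macrophages and neutrophils, had 61 and 73 reads in bone and lung (2.66 and 2.91 CPM) and none in the 4 culture libraries, at least 53.8-fold higher than RM1. Ptprc, the pan-leukocyte gene, had no reads in bone or lung, and the summed level of 11 leukocyte markers was 25.5 and 24.4 CPM in bone and lung, 11.8 and 4.04 in RM1536, and 17.1 and 47.9 in RM1, with Cd68 at 19.6 and 20.4 CPM in bone and lung. Ly6g, a neutrophil antigen gene with near copies, had 1 read in recovered cells against 212 in RM1. Summed endothelial markers lay at 9.21 and 9.36 CPM in bone and lung, 4.67 and 2.15 in RM1536, and 1.84 and 3.80 in RM1, and 3 of the 7 were at 0 in bone and 1 in lung. Pecam1, Tie1 and Vwf, the tested members, had positive log2 fold changes of 3.41, 1.89 and 2.20 and were not called (adjusted p = 0.103, 0.129 and 0.256), while Cdh5 and Kdr stayed at or under 0.0797 CPM in both sites. Lung epithelium markers summed to 1.99 CPM or less in every library. Stromal markers summed to 32.1 and 663 CPM in bone and lung, of which Col1a1 made 0.786 and 609, while Col1a2, its partner chain gene, had 0.131 and 0.279. The part of such cells in the differences against RM1 was not tested.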

How the data were processed

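Whole-number read counts per gene for 6 libraries were used as the authors deposited them, per the file headers. The submitters' processing notes name TopHat2 2.1.10, HTSeq, edgeR and the build GRCm38 without roles or order. For strandedness, annotation and counting mode, nothing is given in the sources used here. Per the labels' protocols, total RNA with an integrity number above 6.8 went into NEBNext Ultra libraries.

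Counts were analysed with edgeR 4.0.16 in R 4.3.3: TMM scaling (factors 0.933 to 1.03), filterByExpr by group, and quasi-likelihood F tests with 3 groups (recovered, RM1536, RM1) and 3 residual degrees of freedom. P-values were adjusted by Benjamini-Hochberg over 13182 genes of 23791 entries, and a call is an adjusted p under 0.05. CPM are TMM-scaled. A row with no gene name, 0.00626% to 0.0083% of counts, was left out. The calls and the persisted class were tried on simulated data. Planted differences were shared by RM1536 and recovered cells, so the returned and first-called classes were not covered. A returned gene kept under 25% of its log2 difference or passed the RM1 level to the other side without a call. Over 75% counted as kept. Floors are 3 counts over a group, intervals are exact at 95%, and both cover counting error only. Values after ± are the absolute log2 fold change divided by the square root of the F statistic. They approximate an SE and are least reliable where a group has few reads. DESeq2 1.42.0 and limma-voom (limma 3.58.1), scalings, filters, other groupings and left-out libraries were the alternatives. The replicate letters a and b were checked on the culture libraries.

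The comparison and the gene lists were chosen with earlier results of these data known. List counts given beside a background share may therefore be set in part by that choice. Named genes had a mean of at least 5 CPM and no predicted name: the 8 largest rises and falls, up to 6 returned genes and 6 genes first called after passage in each direction, and all Cdkn2 region members. For the 8 rises and 8 falls, bone and lung both had to lie outside the RM1 range on the same side. Up to 4 called members per list were also named, and for these the minimum of 5 CPM was not applied. Genes named after their values were seen, beyond those stated as such, were H2-K1, B2m, Cd274, Mki67, Col6a1, Uchl1, Itgb3, Mmp2, Mirg and mt-Nd3. Ifnar1, Hoxb13, Krt18, Epcam, Cdh1, Acp5, Bglap, Ptprc, Cd68, Cdh5, Kdr, Tie1, Vwf and Col1a2 were not picked by these rules either. Gene positions came from a GENCODE annotation of GRCm38, and promoters from RefSeq on GRCm38.p6. A few genes are not reported here.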

Additional observations from a re-analysis of the deposited data

Results flagged for a closer look

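In 3 of the genes named by rule, the bone and lung libraries lay outside the range of both RM1 libraries, on opposite sides. Values are relative to the RM1 mean. Each site is 1 library, so the difference between sites was not tested. For Paqr8 lung minus bone was 0.46 on the log2 scale, with bone at -0.43 and lung at 0.03 relative to RM1. For Eps8l2 it was -0.51, with bone at 0.13 and lung at -0.38. For Col1a1, a type I collagen chain gene, it was 9.43, with bone at -4.35 and lung at 5.08. Col1a1 had 18 and 15301 reads in bone and lung, 220 and 858 in RM1536, and 522 and 514 in RM1, and recovered cells were not called against RM1 (log2 fold change 4.09 ± 2.12, adjusted p = 0.309, edgeR).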

How the results depend on the processing

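Counts below are calls in recovered cells against RM1, RM1536 against RM1 and recovered cells against RM1536, then genes that persisted, returned and were first called after passage. Without a low-count filter they were 2279, 1938, 865, 1301, 227 and 964. DESeq2 gave 1897, 1536, 344, 1012, 132 and 880. A stricter filter (5 CPM in 2 libraries) gave 482, 247, 0, 194, 8 and 288. With bone and lung as separate groups, 788 genes were called in RM1536, 579 persisted and 50 returned. With the 2 compared groups alone, 454 and 836 were called against RM1, 46 returned and 143 were first called. In that setting 227 persisted, 35.1% of the RM1536 calls with a value in every comparison. Leaving out 1 library gave 5 to 652, 2 to 792, 0 to 2, 2 to 391, 0 to 74 and 3 to 419, lowest without RM1 a or RM1 b for the recovered cells. Other settings stayed within 1.5 times. Of 80 named calls, sign changed in 0, as non-overlapping groups fix in advance.

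No paired analysis was possible because bone and lung carry no replicate letter. On the 4 culture libraries, same-letter deviations correlated at -0.397. A replicate block gave 295 calls in RM1536 against RM1, against 836 without it, and a crossed replicate block, added after the data were seen, gave 3163.

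Depth allows 3 counts, or 0.099 to 0.132 CPM. One mouse and 2 libraries a group limit every value.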

Other observations

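Lower genes were unevenly placed over the chromosomes, a pattern chosen after its values were seen and given with no test. In recovered cells against RM1, 70 of 784 tested genes on chromosome 4 were lower (8.93%) and 43 of 489 on chromosome 13 (8.79%), against 3.59% of all genes. Between 10 and 20 Mb of chromosome 4, 16 of 30 genes were lower, with a median log2 fold change of -1.93 in recovered cells and -1.07 in RM1536. From 20 to 30 Mb 9 of 17 were lower, and from 30 to 40 Mb 10 of 19. The longest run of neighbouring tested genes that were all lower held 7, Ccnc, Tstd3, Usp45, Pnisr, Coq3, Faxc and Fbxl4, whose starts lie between 21727701 and 22357543 on chromosome 4. Ccnc, the cyclin C gene, had 6.81 and 7.69 CPM in bone and lung, 10.97 and 9.20 in RM1536, and 23.8 and 23.9 in RM1. Usp45, a deubiquitinase gene, had 11.2 and 8.56 CPM in bone and lung, 14.2 and 15.965 in RM1536, and 37.3 and 37.8 in RM1. Other runs held MHC and interferon genes, among them Psmb9, Tap1, Psmb8, Tap2 and Notch4 on chromosome 17.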
